A study of Mus musculus with 2 samples.

Results

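The genes described here are the 7 costimulatory and checkpoint ligand genes Cd80, Cd86, Cd40, Cd274, Pdcd1lg2, Icosl and Cd83, picked by symbol from the 48709 genes of the count matrices. They were followed in cells of the mouse cochlea bound by CD11b microbeads, in 1 library from implanted and 1 library from non-implanted cochleae. The implanted library came from cochleae that carried an electrode array, of the kind used in cochlear implants, until day 33 after implantation, and the non-implanted library from cochleae without one. The series design describes the other cochlea of the same mice as its comparison tissue, and the sample labels do not state that this is the non-implanted library. All mice of both libraries were labelled CX3CR1+/GFP Thy1+/YFP on C57BL/6J/B6, so GFP sat at one Cx3cr1 allele and a Thy1 transgene gave YFP in implanted and non-implanted tissue alike. Males and females were pooled in each library, and the labels give neither the number of animals nor whether the array released dexamethasone, which the series title mentions. With 1 library per group no difference between implanted and non-implanted tissue has a replicate check, so no p-value is given and every interval covers counting error only.

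T cells are activated by antigen on MHC molecules together with a second signal from the presenting cell. CD80 and CD86 give that signal through CD28 and are also bound by the inhibitory receptor CTLA-4, while ICOS ligand, the product of Icosl, binds ICOS. PD-L1 (Cd274) and PD-L2 (Pdcd1lg2) bind the inhibitory receptor PD-1. CD40 sits on the presenting cell, receives CD40 ligand from T cells and signals through TRAF adaptors to NF-κB, which in turn raises CD80 and CD86 on dendritic cells. CD83 keeps MHC class II and CD86 at the surface by opposing the ubiquitin ligase MARCH1. Mature dendritic cells are best known for these molecules, and inflammatory macrophages and monocytes carry them too.

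In GRCm38, Cd80 lies at chr16:38455561-38496335 on the plus strand and Cd86 at chr16:36603869-36666081 on the minus strand. Cd40 lies at chr2:165055627-165072948, Icosl at chr10:78069302-78083913 and Cd83 at chr13:43784775-43803132, all on the plus strand. Cd274, at chr19:29367455-29388095, and Pdcd1lg2, at chr19:29410919-29471161, are neighbours on the plus strand with 22823 bases between them. The 250 bases before the RefSeq start (GRCm38.p6) of these neighbours are shown because both genes were high in the same neutrophil-like clusters; capitals mark a match to the NF-κB consensus. RefSeq held promoters for 4 of the 7 genes.
Cd274, chr19:29367188-29367437, plus strand: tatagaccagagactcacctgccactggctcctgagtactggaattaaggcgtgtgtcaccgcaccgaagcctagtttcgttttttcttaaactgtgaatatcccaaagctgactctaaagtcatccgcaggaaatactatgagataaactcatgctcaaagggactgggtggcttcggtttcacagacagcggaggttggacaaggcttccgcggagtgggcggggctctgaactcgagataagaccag
Pdcd1lg2, chr19:29410669-29410918, plus strand: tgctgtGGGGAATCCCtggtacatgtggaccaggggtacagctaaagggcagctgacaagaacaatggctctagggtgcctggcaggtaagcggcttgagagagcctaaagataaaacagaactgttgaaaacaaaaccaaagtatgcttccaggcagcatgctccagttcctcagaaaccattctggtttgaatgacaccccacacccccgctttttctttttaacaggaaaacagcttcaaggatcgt
Searched on both strands, the NF-κB consensus stood at -244 in Pdcd1lg2 and at -111 in Icosl, counted from the start, and was not found in these windows of Cd274 and Cd80. It was found in 7.25% of 32851 mouse promoters of the same length. An interferon response element (GAAA, any 2 bases, GAAA), present in 2.98% of promoters, and a STAT site (TTCNNNGAA), present in 7.02%, were found in none of the 4. These matches describe letters only.

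After filtering, 3065 of 3231 barcodes were kept in the implanted library and 3411 of 3572 in the non-implanted library, with 18424595 and 20374205 UMIs and medians of 4237 and 4150 UMIs per cell; 5 kept barcodes occurred in both libraries. Cells were clustered without the 7 genes and named by marker genes. This gave 178 implanted and 124 non-implanted macrophage-like cells, 37 and 52 dendritic-like cells, 282 and 238 monocyte-like cells, 37 and 24 B cell-like cells, and 1485 and 1727 neutrophil-like cells, beside granulocyte precursors, erythroid-like and osteoclast-like cells. Implanted and non-implanted macrophage-like cells held 2853 and 4054 CPM (UMIs per 1000000 UMIs of the class) of the complement gene C1qa, and dendritic-like cells held 1311 and 1023 CPM of Cd209a. Itgam, the gene of the CD11b antigen used for the selection, had 0 CPM in every class of both libraries, so the selection could not be checked on its own gene. Clusters holding mixed transcripts, where S100a8 of neutrophils passed 50000 CPM (88 implanted cells, 2.87%, and 91 non-implanted cells, 2.67%, a threshold set after the values were seen), and 46 and 36 cells without a name were left out.

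Over all kept cells, Cd86 had 2962 UMIs in implanted and 2918 in non-implanted tissue, Cd83 2850 and 2633, Cd80 1007 and 1014, and Cd274 834 and 790. The other 3 genes were sparse, with 182 and 172 UMIs of Cd40, 154 and 171 of Pdcd1lg2, and 137 and 175 of Icosl. The genes divided by where their UMIs lay. Monocyte-, macrophage- and dendritic-like cells together supplied 17.5% of all UMIs of implanted and 11.9% of non-implanted tissue, but 82.2% and 74.5% of those of Cd86, 84.1% and 80.8% of those of Cd40, and 86.1% and 80.7% of those of Cd83. Neutrophil-like cells and granulocyte precursors supplied 69.7% of the Cd80 UMIs in implanted and 77.6% in non-implanted tissue, and 73.4% and 81.9% of those of Pdcd1lg2. These shares lay close to the lineage's share of all UMIs, 68.8% in implanted and 76.2% in non-implanted tissue. Cd274 came to 56.5% and 72.9% from the neutrophil lineage.

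**Figure D1:**
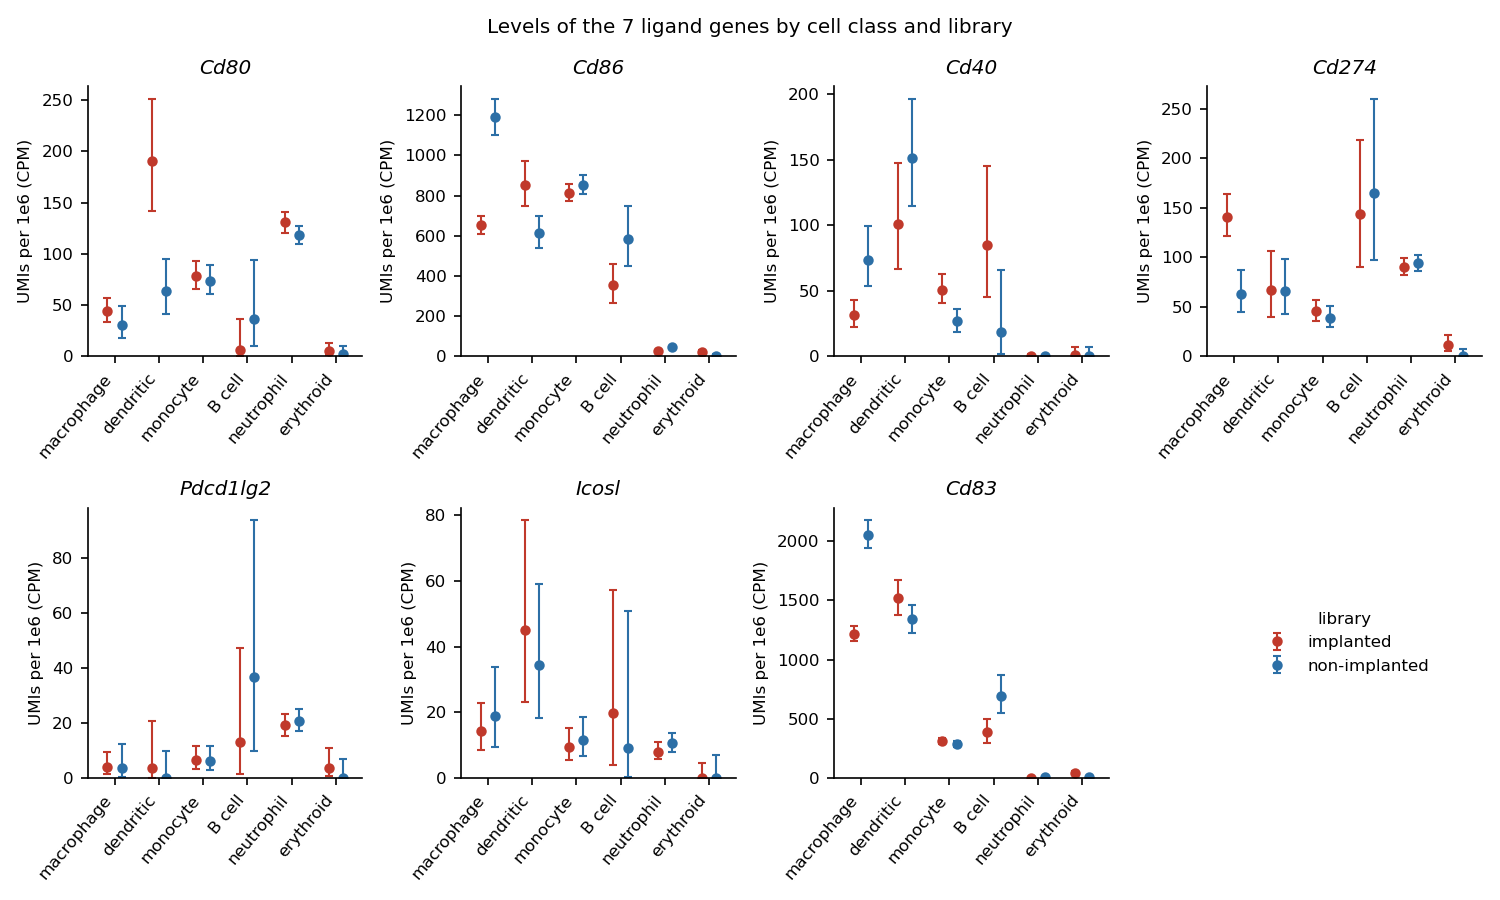
Level of each ligand gene (y axis, CPM) in 6 cell classes (x axis) of the implanted (red, left) and non-implanted (blue, right) library; points are summed UMIs of the class and bars exact Poisson 95% intervals. Cd86, Cd40 and Cd83 stand low in neutrophil-like cells, at 27.1 and 46.6, 0.410 and 0.358, and 2.46 and 5.19 CPM in implanted and non-implanted libraries, while Cd80 reaches 131 and 118 CPM there.

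Cd80, the CD28 and CTLA-4 ligand induced by activation, was a neutrophil, monocyte and dendritic transcript here. Neutrophil-like cells held 131 CPM (interval 121 to 141) in implanted and 118 CPM (109 to 127) in non-implanted tissue. Monocyte-like cells followed with 78.3 (65.6 to 92.8) and 73.8 CPM (60.5 to 89.1), and macrophage-like cells with 44.1 (33.2 to 57.4) and 30.8 CPM (18.3 to 48.7). Within each library, neutrophil-like cells stood above macrophage-like cells, 2.96-fold (2.25 to 3.97) in implanted and 3.83-fold (2.40 to 6.50) in non-implanted tissue. Dendritic-like cells held 191 CPM (142 to 251) in the implanted library, where 26 of 51 UMIs lay in 1 cell; without that cell they held 99.1 CPM (64.1 to 146), overlapping neutrophil- and monocyte-like cells. They held 63.8 CPM (40.9 to 94.9) in the non-implanted library, where they could not be separated from monocyte-like cells. B cell-like cells had 1 implanted and 4 non-implanted UMIs, too few to place. At least 1 Cd80 UMI was found in 25.5% of implanted and 23.9% of non-implanted neutrophil-like cells at median depths of 2938 and 2864 UMIs. Erythroid-like cells, which should lack the gene, gave 2.56% and 2.44% at 7638.5 and 10666 UMIs.

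Cd86, the CD28 and CTLA-4 ligand that myeloid cells carry before activation, was high in monocyte-, dendritic- and macrophage-like cells and low in neutrophil-like cells. Monocyte-like cells held 815 CPM (773 to 859) in implanted and 853 CPM (806 to 901) in non-implanted tissue, with a Cd86 UMI in 77.3% of cells of both. Dendritic-like cells held 854 (747 to 972) and 614 CPM (537 to 699), macrophage-like cells 651 (607 to 698) and 1189 CPM (1102 to 1281), and B cell-like cells 353 (266 to 461) and 585 CPM (451 to 747). Over all cells the order differed between libraries. Dendritic- and monocyte-like cells overlapped at the top in the implanted library, while macrophage-like cells stood above both in the non-implanted library. This rested on a macrophage-like cluster led by Mmp12, Spp1 and Gpnmb, described below, with 54 implanted and 2 non-implanted cells. Without it macrophage-like cells held 1075 CPM in implanted and 1199 CPM in non-implanted tissue, the highest level in each library. Neutrophil-like cells held 27.1 CPM (22.6 to 32.1) in implanted and 46.6 CPM (41.1 to 52.6) in non-implanted tissue, 0.0416- and 0.0392-fold the macrophage-like level. Cd86 was found in 6.20% of implanted and 8.05% of non-implanted neutrophil-like cells and in 5.13% and 2.44% of the deeper erythroid-like cells, so the implanted share is close to that of a cell type that should lack the gene.

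Cd274, which encodes PD-L1, was present in all 5 classes. Macrophage-like cells held 141 CPM (121 to 164) in implanted and 63.4 CPM (44.6 to 87.4) in non-implanted tissue, and B cell-like cells 144 (90.2 to 218) and 165 CPM (97.5 to 260) from 22 and 18 UMIs. Neutrophil-like cells held 90.4 (82.2 to 99.3) and 94.0 CPM (86.1 to 102), dendritic-like cells 67.4 (39.9 to 106) and 66.5 CPM (43.0 to 98.1), and monocyte-like cells 45.6 (36.1 to 56.9) and 38.9 CPM (29.5 to 50.5). Only part of this order could be read. In the implanted library the interval of B cell-like cells overlapped those of macrophage-, neutrophil- and dendritic-like cells, and that of dendritic-like cells overlapped those of neutrophil- and monocyte-like cells. In the non-implanted library macrophage-, dendritic- and monocyte-like cells overlapped each other, and neutrophil-like cells overlapped macrophage-, dendritic- and B cell-like cells. Granulocyte precursors held 3.84 and 5.13 CPM, so neutrophil-like cells stood 23.5-fold (16.3 to 35.3) above them in implanted and 18.3-fold (13.7 to 24.9) in non-implanted tissue. Cd80 showed the same step, 15.7-fold (12.1 to 20.6) and 9.16-fold (7.57 to 11.2).

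Pdcd1lg2, which encodes PD-L2, was sparse and mostly in neutrophil-like cells. They held 19.1 CPM (15.4 to 23.4) in implanted and 20.8 CPM (17.2 to 24.9) in non-implanted tissue, against 2.56 and 2.42 CPM in granulocyte precursors. Macrophage-like cells had 5 implanted UMIs, all in 1 cell, and 2 non-implanted UMIs, and dendritic-like cells had 1 and 0, where the exact interval for 0 UMIs reaches 9.81 CPM. B cell-like cells had 13.1 and 36.6 CPM from 2 implanted and 4 non-implanted UMIs, too few to place against neutrophil-like cells. Cells with a UMI made up 5.52% of implanted and 5.67% of non-implanted neutrophil-like cells, and 1.28% and 0% of erythroid-like cells. The antisense gene A930007I19Rik overlaps Pdcd1lg2 and had 113 and 105 UMIs. How the counting used strand is not given in the sources used here, so UMIs of the pair cannot be told apart with certainty.

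Icosl had its highest level in dendritic-like cells, with 44.9 CPM (23.2 to 78.5) in implanted and 34.6 CPM (18.4 to 59.1) in non-implanted tissue. Macrophage-like cells held 14.4 (8.56 to 22.8) and 18.8 CPM (9.41 to 33.7), monocyte-like cells 9.35 (5.35 to 15.2) and 11.6 CPM (6.77 to 18.6), and neutrophil-like cells 7.998 (5.69 to 10.9) and 10.6 CPM (8.04 to 13.6). Those last 3 classes overlapped in both libraries. Against macrophage-like cells, dendritic-like cells stood 3.11-fold (1.37 to 6.83) higher in implanted tissue and 1.83-fold (0.758 to 4.52), within counting error, in non-implanted tissue. They stood 4.80-fold (2.07 to 10.8) above monocyte-like cells in implanted and 2.98-fold (1.33 to 6.50) in non-implanted tissue. Erythroid-like cells had 0 UMIs in both libraries, where the exact intervals reach 4.64 implanted and 7.04 non-implanted CPM.

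Cd40 stood at 101 CPM (66.6 to 147) in implanted and 152 CPM (115 to 196) in non-implanted dendritic-like cells. Of the 57 non-implanted UMIs 25 lay in 1 cell, and without the cells with 2 or more Ccr7 UMIs the level was 89.1 CPM (60.9 to 126), overlapping macrophage-like cells. Macrophage-like cells held 31.3 (22.2 to 42.8) and 73.7 CPM (53.3 to 99.2), and monocyte-like cells 50.9 (40.7 to 62.7) and 26.6 CPM (18.9 to 36.4). Macrophage-like cells thus stood above monocyte-like cells in the non-implanted library, while the intervals of these classes overlapped in the implanted library. Without the Mmp12 Spp1 cluster implanted macrophage-like cells held 43.4 CPM on 26 UMIs. B cell-like cells held 85.1 CPM (45.3 to 146), overlapping dendritic-like cells, from 13 implanted UMIs, and had 2 non-implanted UMIs. Neutrophil-like cells had 2 UMIs in each library, 0.410 and 0.358 CPM over 1485 implanted and 1727 non-implanted cells, against 1.26 and 0 CPM in erythroid-like cells, where the exact interval for 0 UMIs reaches 7.04 CPM.

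Cd83 was high in dendritic- and macrophage-like cells. Dendritic-like cells held 1521 CPM (1376 to 1676) in implanted and 1342 CPM (1228 to 1465) in non-implanted tissue, with a UMI in 91.9% and 92.3% of cells. Macrophage-like cells held 1218 (1158 to 1281) and 2057 CPM (1942 to 2177) in 67.4% and 66.1% of cells, and monocyte-like cells 309 (283 to 336) and 287 CPM (260 to 316) in 59.6% and 59.2%. B cell-like cells held 386 and 695 CPM. Neutrophil-like cells held 2.46 and 5.19 CPM, with a UMI in 0.741% and 0.695% of cells, below the 5.13% and 4.88% of erythroid-like cells. In erythroid-like cells of the implanted library 31 of 35 Cd83 UMIs sat in 1 cell.

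Neutrophil-like cells were not uniform in Cd80, Cd274 and Pdcd1lg2. Granulocyte precursors lay lowest. High levels were found in the clusters led by Acod1 (the itaconate-producing enzyme) and by Csf1, Il1b and Ccl3 (a growth factor, a cytokine and a chemokine of activated myeloid cells), and for Cd80 and Cd274 also in an interferon-response cluster. In the Csf1 Il1b cluster Cd80 stood at 309 CPM in implanted and 227 CPM in non-implanted tissue, and in the Acod1 cluster at 252 and 261 CPM. The cluster led by Retnlg held 70.0 and 46.2 CPM, the Cdadc1 Krt83 cluster 59.98 and 70.48 CPM, and the Ifitm1 cluster 102 and 105 CPM. The interferon-response cluster, led by Oasl1, Rsad2 and Isg15 and of 35 cells in each library, held 240 and 175 CPM.

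Cd274 had 358 implanted and 249 non-implanted CPM in the Csf1 Il1b cluster, 154 and 140 CPM in the Acod1 cluster, and 146 and 184 CPM in the interferon-response cluster, so the order of these clusters was not shared by the libraries. The Ifitm1 cluster held 85.9 and 125 CPM. Cd274 held 9.60 and 19.2 CPM in the Cdadc1 Krt83 cluster. Pdcd1lg2 reached 46.9 and 33.6 CPM in the Csf1 Il1b cluster and 31.97 and 32.41 CPM in the Acod1 cluster, against 5.998 and 4.004 CPM in the Cdadc1 Krt83 cluster. All of these cells were clustered on other genes, so the 3 ligands took no part in drawing the clusters.

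The Acod1 and Csf1 Il1b clusters together held 519 of 1485 implanted neutrophil-like cells (34.9%) and 538 of 1727 non-implanted ones (31.2%), and were shallower than the remaining neutrophil-like cells, at medians of 2367 against 3221 UMIs in implanted and 2361.5 against 3080 UMIs in non-implanted tissue. Against those remaining cells, Cd80 was 274 against 75.6 CPM in the implanted library, 3.62-fold (3.09 to 4.26), and 244 against 72.4 CPM in the non-implanted library, 3.37-fold (2.88 to 3.94). Cd274 was 231 against 36.4 CPM, 6.35-fold (5.15 to 7.86), in implanted and 195 against 57.5 CPM, 3.38-fold (2.84 to 4.04), in non-implanted tissue. Pdcd1lg2 was 37.6 against 11.9 CPM, 3.15-fold (2.05 to 4.86), and 33.0 against 16.3 CPM, 2.02-fold (1.37 to 2.97). Cd86, at its lower level, was 59.0 against 14.8 CPM in implanted and 70.8 against 37.8 CPM in non-implanted tissue. Summed over the Acod1 and Csf1 Il1b clusters, these 4 ligands were thus higher than in the summed remaining neutrophil-like cells of both libraries. Single clusters among the remaining cells could differ. Cd86 in the non-implanted Ifitm1 cluster stood above the summed level of the Acod1 and Csf1 Il1b clusters. Icosl was 17.7 against 4.26 CPM in the implanted library (24 and 15 UMIs) and 10.1 against 10.7 CPM in the non-implanted library, so its direction was not shared.

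**Figure D2:**
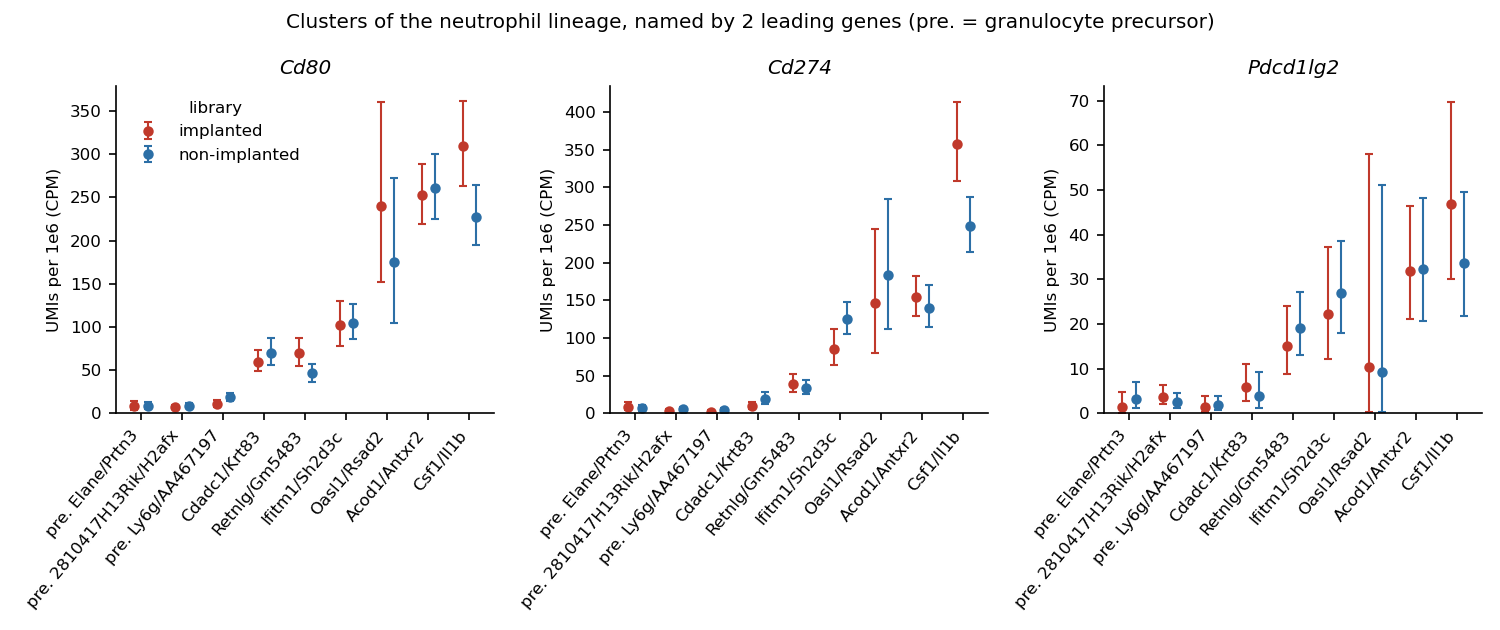
Cd80, Cd274 and Pdcd1lg2 (y axes, CPM) in clusters of granulocyte precursors (pre.) and neutrophil-like cells, named by 2 leading genes, in the implanted (red, left) and non-implanted (blue, right) library, with exact Poisson 95% intervals. The Csf1/Il1b cluster is highest for Cd274, at 358 implanted and 249 non-implanted CPM.

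Co-detection was counted within single neutrophil-like cells. Cd274 was found in 19.3% of implanted cells with Cd80 and 12.5% of those without it, and in 16.7% and 11.8% in the non-implanted library. Depth ran the other way, with medians of 2884 UMIs in implanted cells with Cd80 and 2958 without, and of 2804 and 2875.5 in non-implanted tissue. Pdcd1lg2 was found in 9.005% of implanted cells with Cd274 and 4.95% of those without, and in 10.7% and 4.92% in the non-implanted library. Pdcd1lg2 was found in 7.14% of implanted cells with Cd80 and 4.97% of those without, but in 5.57% and 5.71% in the non-implanted library. Cells with at least 3 of the 7 ligands made up 1.21% of implanted and 1.04% of non-implanted neutrophil-like cells, 44.4% and 31.5% of macrophage-like cells, 43.2% and 36.5% of dendritic-like cells and 31.6% and 27.7% of monocyte-like cells. With every cell thinned to 1000 UMIs, the macrophage-like share became 5.59% in implanted and 10.1% in non-implanted tissue, which turned the order of the libraries round.

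Monocyte-like cells divided into clusters led by F13a1 and Hspa1a, by Vcan and Fn1, by Cxcl10 and Ms4a4c, and by Adgre4, Pparg and Ace. Cd274 was concentrated in the last, where Ace marks the Ly6c-low patrolling monocyte. It held 214 CPM there in implanted and 232 CPM in non-implanted tissue, against 30.6 and 22.3 CPM in the remaining monocyte-like cells, 7.01-fold (4.29 to 11.3) and 10.4-fold (5.97 to 18.2). The cluster had 34 implanted and 31 non-implanted cells. Cd83 was higher in it as well, at 729 against 271 CPM (2.69-fold, 2.14 to 3.34) in implanted and 740 against 248 CPM (2.99-fold, 2.33 to 3.79) in non-implanted tissue. Pdcd1lg2 had 6 of its 11 implanted and 5 of its 9 non-implanted monocyte UMIs there. Cd80 ran the other way, with 42.9 against 81.5 CPM in implanted and 25.8 against 77.9 CPM in non-implanted tissue, on 6 and 3 UMIs in the cluster. Cd80 was instead highest in the Vcan Fn1 and Cxcl10 Ms4a4c clusters, with 94.2 and 131 CPM in implanted and 120 and 127 CPM in non-implanted tissue. For Cd86 the direction was not shared. The Adgre4 Pparg cluster held 407 against 851 CPM in the remaining implanted monocyte-like cells (0.478-fold, 0.360 to 0.624). In non-implanted tissue it held 947 against 845 CPM (1.12-fold, 0.913 to 1.36), within counting error.

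Among macrophage-like cells, the cluster led by Pmepa1, Apoe and Ccl4 (39 implanted and 35 non-implanted cells) held 2920 and 3446 CPM of Cd83, 1514 and 2135 CPM of Cd86 and 75.7 and 118 CPM of Cd40. The cluster led by Mertk and Mrc1, receptors of engulfment and mannose binding, held 1164 and 1106 CPM of Cd83 and 1028 and 878 CPM of Cd86. A shallow cluster led by Retnla, with medians of 721.5 and 814 UMIs, held 172 and 250 CPM of Cd83 and 24.6 and 75.0 CPM of Cd86. A further cluster, led by Mmp12, Spp1 and Gpnmb (a matrix protease, osteopontin and a lysosomal glycoprotein), had 54 implanted and 2 non-implanted cells. In the implanted library it held 222 CPM of Cd274, against 53.4 CPM in the remaining macrophage-like cells, 4.16-fold (2.82 to 6.31). The same cells held 259 against 1075 CPM of Cd86 (0.241-fold, 0.202 to 0.286) and 479 against 2018 CPM of Cd83 (0.237-fold, 0.209 to 0.269). They held 20.1 against 43.4 CPM of Cd40 and 1 against 17 UMIs of Icosl, while Cd80, at 51.0 against 36.7 CPM (1.39-fold, 0.785 to 2.50), could not be separated.

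**Figure D3:**
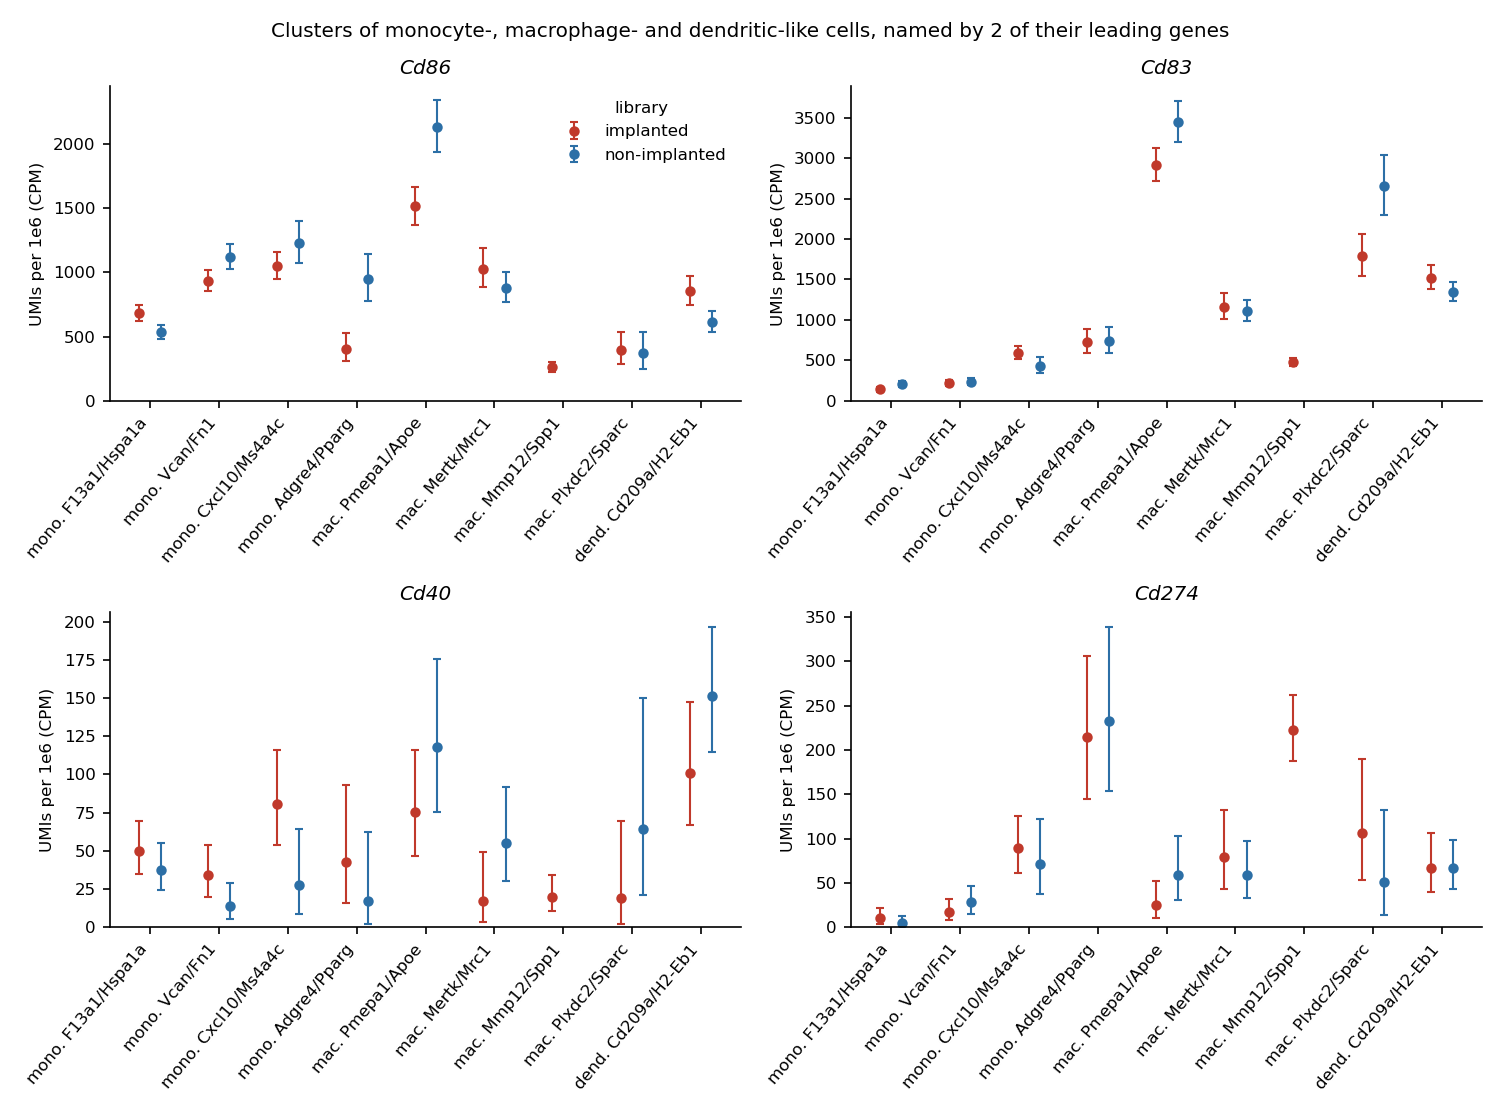
Cd86, Cd83, Cd40 and Cd274 (y axes, CPM) in clusters of monocyte-like (mono.), macrophage-like (mac.) and dendritic-like (dend.) cells of the implanted (red, left) and non-implanted (blue, right) library, with exact Poisson 95% intervals; the shallow Retnla cluster, and the Mmp12/Spp1 cluster in the non-implanted library (2 cells), are not drawn. Cd274 is high in the Adgre4/Pparg monocytes (214 and 232 CPM) and in the implanted Mmp12/Spp1 cells (222 CPM).

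Between implanted and non-implanted macrophage-like cells, Cd274 was higher at 141 against 63.4 CPM, 2.23-fold (1.55 to 3.27). Cd86 was lower at 651 against 1189 CPM, 0.548-fold (0.494 to 0.607), Cd83 at 1218 against 2057 CPM, 0.592-fold (0.549 to 0.639), and Cd40 at 31.3 against 73.7 CPM, 0.425-fold (0.268 to 0.671). Counting a gene as higher or lower from 1.5-fold, among genes whose UMIs of both libraries summed to at least 20, 1 of 6 measured ligands was higher and 3 were lower. Of all 8371 genes measured in these cells 15.8% were higher and 18.1% lower. The class holds different clusters in the libraries: without the Mmp12 Spp1 cluster, 124 implanted and 122 non-implanted cells remained, and 11.3% and 12.2% of all measured genes were higher and lower. In those cells Cd274 stood at 53.4 against 57.2 CPM (0.933-fold, 0.556 to 1.57), Cd86 at 1075 against 1199 CPM (0.897-fold, 0.804 to 1.00) and Cd83 at 2018 against 2082 CPM (0.969-fold, 0.894 to 1.05). Of the ligands lower over all cells, Cd40 alone stayed past 1.5-fold, at 43.4 against 74.6 CPM (0.582-fold, 0.343 to 0.969). RNA of neutrophils moved with the comparison: the 13 neutrophil markers, all detected in both, summed to 16794 CPM in implanted and 3842 CPM in non-implanted macrophage-like cells, and their part in these differences was not tested.

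**Figure D4:**
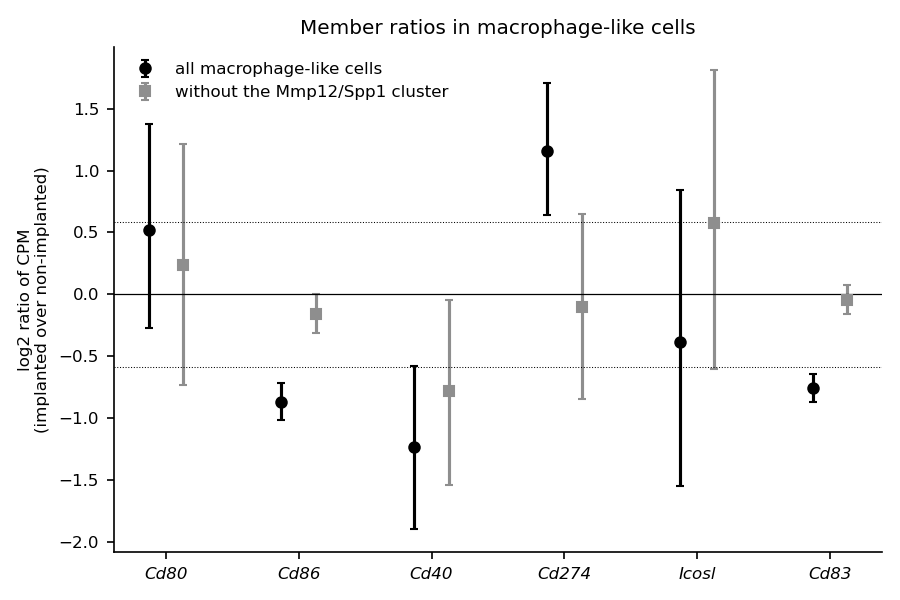
Ratio of implanted over non-implanted CPM in macrophage-like cells (y axis, log2) for 6 ligand genes, over all cells (black circles) and without the Mmp12/Spp1 cluster (grey squares); bars are exact 95% intervals for counting error and dotted lines mark 1.5-fold. Cd274, Cd86 and Cd83 are at 2.23-, 0.548- and 0.592-fold over all cells, and at 0.933-, 0.897- and 0.969-fold without the cluster.

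In dendritic-like cells Cd80 was higher, at 191 CPM in implanted and 63.8 CPM in non-implanted tissue, 2.99-fold (1.81 to 5.09). It was 1 of 6 measured ligands at least 1.5-fold higher, and 0 were lower, with Cd40 just short of that at 0.667-fold (0.406 to 1.07); of all 5051 genes measured 14.9% were higher and 14.4% lower. Of the 51 implanted Cd80 UMIs, 26 lay in 1 cell, which also held 11 of the 18 Cd274 UMIs and all 53 Ccr7 UMIs. CCR7 guides maturing dendritic cells to lymph nodes, and this cell also held 76 UMIs of Fscn1, an actin bundler of such cells. Without cells with 2 or more Ccr7 UMIs (1 implanted and 2 non-implanted), Cd80 stood at 99.1 against 66.8 CPM, 1.48-fold. Cd274 then stood at 27.7 against 69.6 CPM, 0.399-fold, on 7 and 25 UMIs. Cd40, at 101 against 152 CPM over all cells, stood at 103 against 89.1 CPM, since 25 of the 57 non-implanted Cd40 UMIs lay in 1 of the removed cells. Cd86 was 854 against 614 CPM (1.39-fold, 1.15 to 1.68) over all cells and 852 against 643 CPM without them.

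In monocyte-like cells Cd40 was higher, at 50.9 CPM in implanted and 26.6 CPM in non-implanted tissue, 1.91-fold (1.29 to 2.86). It was 1 of 7 measured ligands past 1.5-fold higher, with 0 lower; of all 9025 genes measured 6.73% were higher and 6.43% lower. The difference had the same sign in each of the 4 clusters, at 50.0 against 37.5 CPM in the F13a1 Hspa1a, 33.9 against 14.0 CPM in the Vcan Fn1, 80.6 against 27.5 CPM in the Cxcl10 Ms4a4c and 42.9 against 17.2 CPM in the Adgre4 Pparg cluster. These clusters share the same libraries and are not replicates. They divide 87 implanted and 39 non-implanted UMIs, of which the Adgre4 Pparg cluster held 6 and 2. Cd40 was found in 20.6% of implanted (16.004 to 25.8) and 13.03% of non-implanted cells (9.02 to 18.0), so the shares' intervals overlapped, against 1.28% and 0% of erythroid-like cells. Cd86 differed little over the class, 0.956-fold (0.885 to 1.03), yet in the Adgre4 Pparg cluster it was 407 against 947 CPM, 0.430-fold. Cd80, Cd274 and Cd83 were 1.06-fold (0.818 to 1.38), 1.17-fold (0.822 to 1.68) and 1.08-fold (0.945 to 1.23).

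In neutrophil-like cells Cd80, Cd274 and Pdcd1lg2 differed little over the class, at 1.11-fold (0.991 to 1.24), 0.962-fold (0.846 to 1.09) and 0.918-fold (0.691 to 1.22). Cd86 was lower, at 27.1 CPM in implanted and 46.6 CPM in non-implanted tissue, 0.581-fold (0.468 to 0.720). It was 0.880-fold with classes from a marker gate and 0.804-fold when thinned to 1000 UMIs, neither past 1.5-fold, and the Ifitm1 cluster had 27.04 against 84.45 CPM. Cd83 was also counted lower, at 0.474-fold, but 18 of its 29 non-implanted UMIs lay in 1 cell. These were 2 of 6 measured ligands lower and 0 higher, where 5.49% of all 9095 genes measured were lower and 7.66% higher. Within single clusters, Cd80 was 1.51-fold (1.09 to 2.10) in the Retnlg and 1.36-fold (1.09 to 1.70) in the Csf1 Il1b cluster. Cd274 was 1.44-fold (1.17 to 1.77) in the Csf1 Il1b, 0.685-fold (0.490 to 0.946) in the Ifitm1 and 0.499-fold (0.248 to 0.980) in the Cdadc1 Krt83 cluster, so its directions differed between clusters, which was not tested. In B cell-like cells, with 37 implanted and 24 non-implanted cells, Cd86 was 0.604-fold (0.413 to 0.882) and Cd83 0.556-fold (0.389 to 0.792), 2 of 3 measured ligands lower, where 15.1% of 2950 genes were lower and 18.5% higher. The 13 neutrophil markers summed to 1355 CPM in implanted and 10585 CPM in non-implanted B cell-like cells, and the 15 macrophage markers to 255 and 1133 CPM; their part in the result was not tested. The 13 B cell markers summed to 45162 and 22522 CPM, and Vpreb1 and Igll1, surrogate light chain genes of B cell precursors, were detected in implanted cells and at 0 in non-implanted ones, whose part was not tested either.

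The receptors of these ligands were nearly absent from the libraries. The libraries hold cells bound by CD11b microbeads, so these counts do not describe T cells or receptors of the whole cochlea. Over all cells Cd28 had 50 implanted and 25 non-implanted UMIs, Ctla4 39 and 71, Icos 35 and 14, Cd40lg 22 and 6, and Pdcd1, the gene of PD-1, 2 and 6. Rgmb, which binds PD-L2, had 40 and 38. None of the 6 reached 20 UMIs in any of the 5 classes. Cells with at least 2 of the 4 T cell genes Cd3e, Cd3g, Trac and Trbc2 numbered 7 in implanted and 5 in non-implanted tissue. Cd3d, which was not among the 4, was more widely detected, with 148 and 174 UMIs in 111 implanted and 144 non-implanted cells. Cd3e was found in 6 and 4 cells.

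Genes that act downstream of CD40 were described beside the ligands. In dendritic-like cells 6 of 15 measured CD40 signalling genes were higher and 1 lower with the implant, at a median log2 difference of 0.55 against -0.01 over all genes, of which 14.9% were higher and 14.4% lower. Markers of other cells moved with this comparison: the 15 macrophage markers summed to 3565 CPM in implanted and 6342 CPM in non-implanted dendritic-like cells (C1qa 109 and 585), and the 13 neutrophil markers to 2839 and 1188 CPM. Their part in the result was not tested. Relb, the NF-κB subunit of dendritic cell maturation, stood at 240 against 109 CPM (2.20-fold, 1.46 to 3.34), Map3k14, its upstream kinase NIK, at 273 against 130 CPM (2.10-fold, 1.44 to 3.08), and Nfkbia, the NF-κB inhibitor that NF-κB induces, at 1251 against 585 CPM (2.14-fold, 1.80 to 2.55). Without the Ccr7 cells 7 of 13 were higher and 1 lower, with Relb at 170 against 66.8 CPM, where 14.1% and 15.0% of all measured genes were higher and lower. In monocyte-like cells 5 of 16 were higher and 0 lower, beside 6.73% and 6.43% of all genes, among them Nfkbia at 894 against 482 CPM, Relb at 125 against 73.8 CPM and the feedback deubiquitinase gene Tnfaip3 at 243 against 151 CPM. In neutrophil-like cells 4 of 16 were higher and 0 lower, beside 7.66% and 5.49% of all genes, with Nfkb1 at 358 against 223 CPM (1.60-fold, 1.49 to 1.73). Macrophage-like cells had 1 higher (Traf1, 72.2 against 44.5 CPM) and 3 lower of 16, among them Traf6 at 44.1 against 85.6 CPM, beside 15.8% and 18.1% of all genes. Without the Mmp12 Spp1 cluster 2 of 16 were higher and 1 lower, near the 11.3% and 12.2% of all genes.

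The genes that set CD86 and MHC class II at the surface differed most in macrophage-like cells. There 8 of 9 were lower in the implanted library and 0 higher, with a median log2 difference of -1.19 against -0.06 over all genes, of which 15.8% were higher and 18.1% lower. Cd74, the invariant chain, stood at 5859 against 13640 CPM, H2-Aa at 2363 against 5413 CPM and Ciita, the class II transactivator, at 18.4 against 63.4 CPM. As for Cd86 and Cd83, the counts past 1.5-fold rested on the Mmp12 Spp1 cluster. Without it 1 of 9 was lower, Ciita at 33.4 against 64.2 CPM, near the 12.2% of all genes. A smaller difference remained, with a median log2 difference of -0.37 against -0.01 over all genes. Cd74 stood at 10716 against 13810 CPM (0.776-fold, 0.751 to 0.802). March8 alone of the 9 stood above its non-implanted level, at 70.1 against 59.0 CPM (1.19-fold, 0.738 to 1.93). In dendritic-like cells 1 of 8 was lower, near the 14.4% of all genes, March1, the ligase that CD83 opposes, at 213 against 409 CPM (0.522-fold, 0.378 to 0.711). In monocyte-like cells 1 of 9 was higher and 0 lower, beside 6.73% and 6.43% of all genes. This was Ciita, at 23.97 against 15.03 CPM (1.59-fold, 0.928 to 2.81), within counting error. The median log2 difference was 0.34 against -0.002 over all genes. Cd74, at 1.39-fold (1.33 to 1.45), H2-Aa, H2-Ab1 and H2-Eb1 were higher beyond counting error, short of 1.5-fold. March1 and March8 were lower within counting error. The Cxcl10 Ms4a4c cluster, with 2082 and 2547 CPM of H2-Aa, held 63 implanted and 30 non-implanted cells. Its part in these differences was not tested. In neutrophil-like cells 4 of 7 were lower, beside 5.49% of all genes, with H2-Aa at 16.8 against 33.3 CPM (0.505-fold, 0.385 to 0.658). H2-Aa stood at 17.3 and 21.9 CPM in granulocyte precursors and at 11.3 and 9.54 CPM in erythroid-like cells. In B cell-like cells 6 of 8 were lower, beside 15.1% of all genes, and C1qa of macrophages stood at 0 against 201 CPM in them; its part in the result was not tested.

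**Figure D5:**
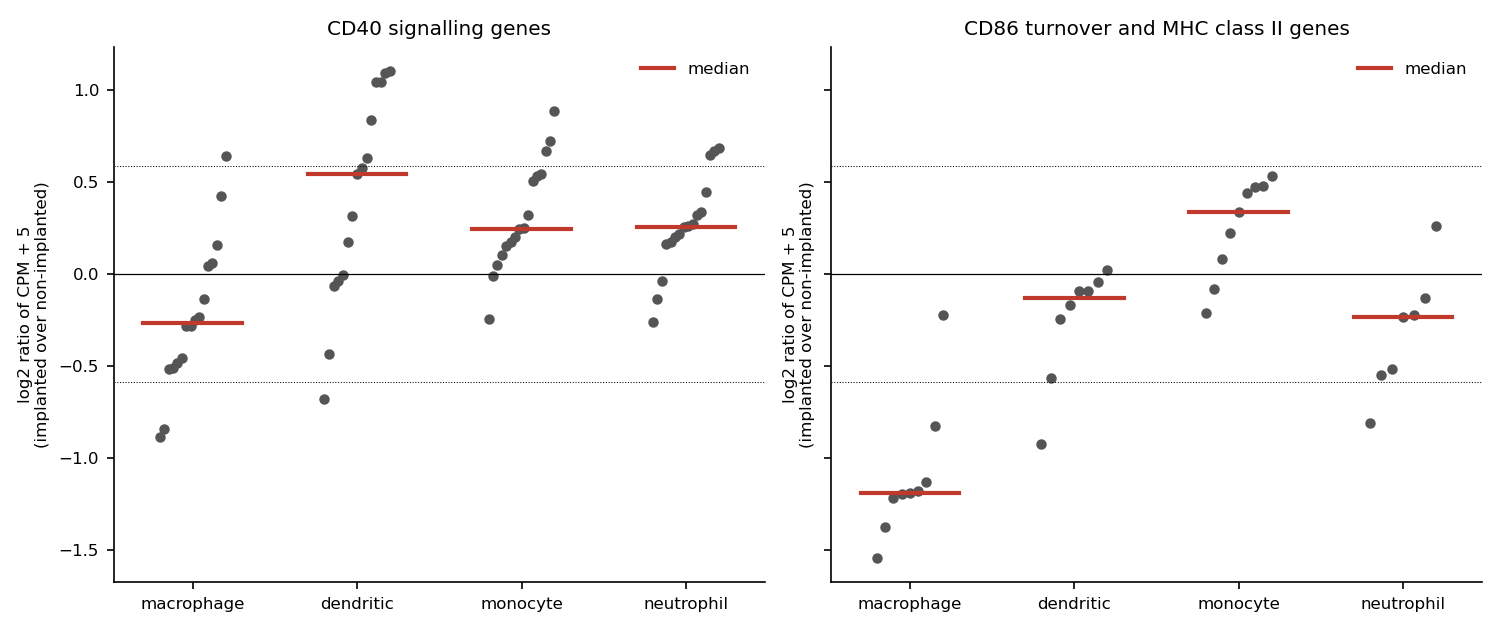
Log2 ratio of implanted over non-implanted CPM + 5 (y axes) of CD40 signalling genes (left panel) and of genes for CD86 turnover and MHC class II (right panel) with at least 20 UMIs, in 4 classes; each point is 1 gene, red lines are medians and dotted lines mark 1.5-fold. The median of the CD40 signalling genes is 0.55 in dendritic-like cells and -0.27 in macrophage-like cells, and that of the class II genes -1.19 in macrophage-like cells.

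Of the genes that regulate PD-L1 or respond to interferon gamma, none of 15 was higher in macrophage-like cells and 5 were lower, beside 15.8% and 18.1% of all genes, including Stat3 at 430 against 685 CPM, Jak1 at 401 against 617 CPM and Cmtm6, which protects PD-L1 from degradation, at 60.2 against 95.9 CPM. Without the Mmp12 Spp1 cluster 2 of 14 were higher and 2 lower, near the 11.3% and 12.2% of all genes, and Stat3 stood at 653 against 690 CPM. The chemokine gene Cxcl9, which interferon gamma induces, was lower in implanted tissue in macrophage-like cells at 1.60 against 41.1 CPM (2 and 24 UMIs) and in dendritic-like cells at 15.0 against 223 CPM (0.0671-fold, 0.0179 to 0.178). Cxcl10 was higher in monocyte-like cells at 156 against 28.0 CPM, 5.57-fold (4.00 to 7.94), where 2 of 13 list genes were higher and 0 lower, beside 6.73% and 6.43% of all genes. The monocyte-like cluster that Cxcl10 itself leads held 63 of 282 implanted and 30 of 238 non-implanted cells. The part of this cluster in the difference was not tested. Jak2, the kinase of the interferon gamma receptor, was higher in dendritic-like cells at 378 against 117 CPM (3.23-fold, 2.25 to 4.72), where 4 of 13 were higher and 3 lower, beside 14.9% and 14.4% of all genes. Without the Ccr7 cells Jak2 stood at 281 against 117 CPM (2.41-fold, 1.62 to 3.61). There 4 of 13 were higher and 4 lower, beside 14.1% and 15.0% of all genes. In neutrophil-like cells 2 of 13 were lower, among them Gbp2 at 7.18 against 12.7 CPM, and 0 higher, beside 5.49% and 7.66% of all genes.

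Among other ligands of the B7 and TNF families few reached 20 UMIs. Tnfsf9, the 4-1BB ligand, was higher in implanted dendritic-like cells at 371 against 101 CPM, 3.67-fold (2.50 to 5.49), and at 392.4 against 105.8 CPM without the Ccr7 cells. Vsir, which encodes the checkpoint molecule VISTA, was common in neutrophil-like cells at 329 against 347 CPM and in macrophage-like cells at 257 against 337 CPM. In monocyte-like cells 1 of 5 was higher, beside 6.73% of all genes, Tnfsf15 at 19 against 2 UMIs. Of other inhibitory ligands and receptors 4 of 11 were higher in macrophage-like cells, beside 15.8% of all genes, among them Cd200, whose product binds an inhibitory receptor on myeloid cells, at 64 against 2 UMIs, and Pirb at 170 against 92.5 CPM (1.84-fold, 1.36 to 2.53). Without the Mmp12 Spp1 cluster 1 of 10 was higher, Cd24a at 25.0 against 12.1 CPM, near the 11.3% of all genes. None of 10 was called in monocyte-like cells, where the median log2 difference was 0.07, while 1 of 8 was higher in dendritic-like, 1 of 10 in neutrophil-like and 3 of 5 in B cell-like cells, with 0 lower, beside 14.9%, 7.66% and 18.5% of all genes. Genes of the mature dendritic cell programme were higher in 8 and lower in 3 of 15 in dendritic-like cells, beside 14.9% and 14.4% of all genes, and in 3 and 0 of 8 without the Ccr7 cells, beside 14.1% and 15.0%. Ccl22, a chemokine for T cells, was lower at 52.4 against 146 CPM over all dendritic-like cells, on 14 and 55 UMIs. Most of these UMIs lay in the few Ccr7 cells, since without them Ccl22 fell below 20 UMIs and was not measured. In macrophage-like cells 3 of 10 were higher and 3 lower, beside 15.8% and 18.1% of all genes, and without the Mmp12 Spp1 cluster 1 of 9 was higher and 0 lower, beside 11.3% and 12.2%. In monocyte-like cells 1 of 9 went each way, beside 6.73% and 6.43%, and in neutrophil-like cells 1 of 9 was higher and 0 lower, beside 7.66% and 5.49% of all genes.

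Over 16 units of class and library, with 11040 candidate genes, the pattern of Cd40 was most like those of Plekha1 (Spearman 0.95), Rela and Slc41a1 (0.95 each), and that of Cd80 like Csf2rb and Irak2 (0.93 each) and Fxyd5 (0.91). Icosl was closest to Irf1 (0.98), Pdcd1lg2 to Gripap1 (0.94) and Lgals9 (0.93), Cd86 to Tmem173 (0.97) and Cd274 to Cep120 (0.92). Between the ligands, Cd40 with Cd83 (0.92), Cd86 with Cd83 (0.89) and Cd86 with Cd40 (0.87) were the most alike, Cd274 with Pdcd1lg2 reached 0.73, Cd80 with Cd86 0.54, and Pdcd1lg2 with Cd83 0.07. The units share libraries and classes, so these values are descriptions.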

How the data were processed

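Single-cell RNA libraries (10x Genomics 3' kit) from implanted and non-implanted cochleae were deposited by the authors as UMI counts per gene and barcode (48816 feature rows), made with Cell Ranger 3.0.1, per the file headers, on mm10, per the submitters' processing notes, which also name Seurat. Neither the aligner settings nor the annotation release is stated in the material used here. Barcodes with at least 200 genes and at most 10% mitochondrial UMIs were kept (82 implanted and 59 non-implanted removed), and the highest Scrublet scores were removed as doublets at 0.8% per 1000 barcodes (84 and 102). Counts were clustered without the 7 ligand genes (scanpy 1.11.5, 2000 variable genes, 30 components, 15 neighbours, leidenalg 0.10.2 at resolution 1, then 1.5 for cells outside the neutrophil and erythroid lineages, a choice made after the first clusters were seen). The 26 clusters were named by markers from 20 lists among their 60 leading genes; this scoring was settled after the clusters were seen, and rebuilt names may differ from the study's.

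For each class and library, UMIs of a gene were summed and set against the total of the class (CPM). Intervals are 95% and exact (Poisson for CPM, Clopper-Pearson for shares, conditional for ratios; scipy 1.17.1), computed with numpy 2.4.6, pandas 2.3.3 and Python 3.11.15, and cover counting error only. Log2 ratios used CPM + 5. The ratio calculation was tested on simulated data. Genes named are the 7 ligands, the 3 most similar genes of each by Spearman correlation (not all are printed), the receptors, and up to 4 genes per list and class with the largest log2 ratio. Ligands and lists were chosen with earlier results of these data known. Positions are from GENCODE M21, promoters from RefSeq. Alternatives covered filters, doublets, clustering, gating, thinning, pseudocounts and left-out cells. The labels' extraction protocol describes other ages and tissue and was not used.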

Additional observations from a re-analysis of the deposited data

Results flagged for a closer look

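Cd40 differed in opposite directions between the libraries in different classes. It was 0.425-fold in implanted over non-implanted macrophage-like cells and 1.91-fold in monocyte-like cells, and the difference between these classes was not tested.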

How the results depend on the processing

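No paired analysis was possible because each group has 1 library. Of 28 ligand ratios under 17 alternatives, 422 of 458 values lay within the counting interval, 32 moved beyond it and 4 called values changed sign. Part of the 422 could not have moved, so their number does not measure robustness. The ratios compared held no pseudocount, so changing it left them as they were. Leaving out the Mmp12 Spp1 cluster or the Ccr7 cells, or adding the mixed C1q cluster, changed the ratios of a single class only. Of the 28 ratios, 10 passed 1.5-fold. The log2 ratio of Cd274 in macrophage-like cells was -0.0916 without the Mmp12 Spp1 cluster. That of Cd83 in neutrophil-like cells was 0.24 with classes from a marker gate, 0.10 when clustering with the ligands and 0.0148 without the top cell of each library, which in non-implanted tissue held 18 of 29 UMIs. Ligand ratios at least 1.5-fold higher over the 5 classes numbered 3, and 5 with the marker gate, at Leiden resolution 2 or with the same weight for every cell. Those at least 1.5-fold lower numbered 7, and 2 with the marker gate and 3 when thinned to 1000 UMIs. With 2 times as many doublets removed, with no cell filter and when clustering with the ligands, no cluster was named dendritic-like, so these counts could not be given. List genes higher in macrophage-like cells numbered 6, and 3 with no cell filter and 11 with no minimum of UMIs. Those lower numbered 19, and 4 without the Mmp12 Spp1 cluster, a setting chosen after seeing the data, as were counting the mixed C1q cluster as macrophages, sub-clustering at resolution 1 and leaving out the Ccr7 cells. The share of neutrophil-like cells with Cd80 was 12.8% in implanted and 10.9% in non-implanted tissue when thinned to 1000 UMIs, and 9.97% and 8.74% with at least 2 UMIs. The share of macrophage-like cells with Cd86 was 38.5% and 46.5% when thinned, and 52.8% and 50% with at least 2 UMIs. The other random draw of the same thinning gave 12.8% and 11.2% for Cd80 and 40.6% and 49.5% for Cd86. The fold of Cd40 in macrophage-like cells ranged from 0.198 to 0.640 and in monocyte-like cells from 1.44 to 2.43. The cause of these changes was not tested. Depth limits Pdcd1lg2 and Icosl most, with 325 and 312 UMIs in all.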

Other observations

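Osteoclast-like cells (25 implanted and 44 non-implanted), which the comparisons above leave out, held 196 CPM of Cd86 in the implanted and 96.4 CPM in the non-implanted library.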
